A study of Drosophila melanogaster with 3 samples.

Results

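The regions described here were the ZLD sites on chromosome arms 2L, 2R, 3L and 3R that were called as peaks at late cycle 14 and at neither earlier stage. Interval midpoints of the deposited 3 peak lists (cycle 8, cycle 13, late cycle 14) were joined where they lay within 150 bp of each other, and a joined group counted as 1 site. This gave 16200 sites over all chromosomes, 13531 of them on the 4 arms, and 1170 of these held peaks of the late cycle 14 list only (8.65% of the arm sites, exact 95% interval 8.18 to 9.13). Because the peak calls chose these sites, their coverage in the same 3 libraries is given as a description and no test was made on it. The members were thus chosen by the peak calls, which rest on the coverage of these libraries.

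Zelda (ZLD) is a maternally supplied zinc-finger protein that binds TAGteam sequences, of which the best known is CAGGTAG, and is required for activation of many of the earliest zygotic genes of the Drosophila embryo. It is known as a pioneer factor, a protein that can bind DNA packed in nucleosomes and make it accessible to other factors. During the rapid early nuclear cycles most transcription is off, and at the maternal-to-zygotic transition in cycle 14 transcription starts across the genome while the embryo cellularizes.

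ZLD-bound DNA was sequenced from wild-type Oregon R embryos of Drosophila melanogaster by chromatin immunoprecipitation, with 1 library per stage. The labels name no treatment and no transgene. The embryos were harvested 60 to 90 min, 120 to 150 min and 180 to 210 min after egg laying in stage order, and 3.7, 6.6 and 6 µg of chromatin entered the precipitation. Staging was by eye and the labels give cycles 8 and 9 for the earliest pool and 13 and 14 for the middle one, so a stage name stands for more than 1 cycle. The rabbit antibodies were purified against a piece of ZLD, and the fraction that bound its zinc fingers was discarded. Each library came from whole embryos, so that binding in fewer nuclei and less ZLD bound per nucleus cannot be told apart.

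The files held 13496488 mapped reads at cycle 8, 18870755 at cycle 13 and 17481411 by late cycle 14, and reads starting at distinct positions made up 23.4%, 50.9% and 40.99% of them. Coverage is the number of reads, each extended to 150 bp, over 1 position, scaled to 10000000 reads per library. It was read at the position of highest summed coverage within 75 bp of the site's midpoint. The median over all positions of the 4 arms, called background here, was 4.45 at cycle 8, 4.24 at cycle 13 and 4.004 by late cycle 14. With 1 library per stage there was no replicate error, differences between stages are sizes without a test, and all intervals (95%) cover counting error only. Copies of 1 molecule make these intervals too narrow, most of all at cycle 8. Peak height means the value of the deposited list, which the peak caller fitted, and coverage can exceed it where a neighbouring peak adds reads. This was so by 1.5 times or more at 72 of the 1170 sites (6.15%), whose nearest peak of any list lay at a median of 390 bp, against 1325 bp for the other sites.

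Most sites called at late cycle 14 only were weak. Their median deposited height was 72.1, against 137.3 for all late cycle 14 sites of the arms, 128.1 for sites shared by cycle 13 and late cycle 14, and 235.9 for sites in all 3 lists. Of the 1170 sites, 844 (72.1%) were at or under 83.2, the lower quartile of the late cycle 14 sites, and 40 (3.42%) were at or above the median, 30 of them with an interval that overlapped a peak of an earlier list. The share of late cycle 14 sites found in no other list was lower at greater heights between 60 and 1000. It was 48.2% (398 of 826, 44.7 to 51.7) for heights of 60 to 70, 25.4% (259 of 1021, 22.7 to 28.2) for heights of 80 to 100, and 7.06% (98 of 1389, 5.77 to 8.53) for heights of 100 to 150. Above 300 only 15 sites remained, 3 of 1329 below a height of 1000 and 12 of 842 above it, and in all 15 the interval overlapped a peak interval of another list.

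**Figure D1:**
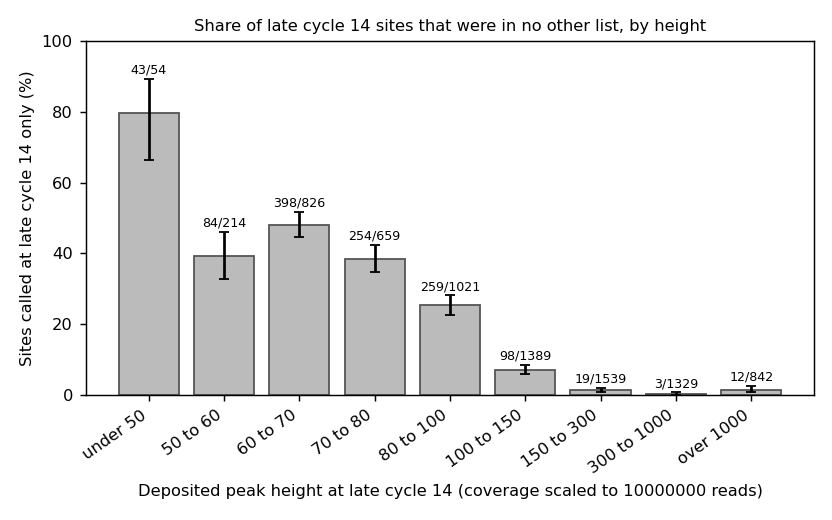
Share of late cycle 14 sites of the 4 arms that were in no other list (vertical axis, percent) by deposited peak height (horizontal axis, coverage scaled to 10000000 reads), with exact 95% intervals and the numbers of sites above each bar. The share was 48.2% for heights of 60 to 70 and 7.06% for heights of 100 to 150.

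The sites were not empty at the earlier stages. Median coverage was 16.3 at cycle 8, 48.5 at cycle 13 and 76.1 by late cycle 14, which is 3.67, 11.4 and 19.0 times background. The quartiles were 9.63 and 26.7 at cycle 8, 39.2 and 56.2 at cycle 13, and 67.5 and 93.2 at late cycle 14, so the interquartile ranges of the 3 stages did not overlap. At cycle 13, 1169 of the 1170 sites had at least 2 times background (99.9%, 99.5 to 100.0), beside 99.4% of all arm sites, and 0 were under background. At cycle 8, 920 sites had at least 2 times background (78.6%, 76.2 to 81.0), 84 were under background (7.18%, 5.77 to 8.81) and 13 had no read at all, where 3 reads would correspond to a coverage of 2.22. Of all arm sites, 96.8% had at least 2 times background at cycle 8, 1.02% were under background and 0.16% had no read. Of the sites shared by cycle 13 and late cycle 14, 92.5% had at least 2 times background at cycle 8 and 2.11% were under background. The rule left out sites with a cycle 8 peak, so nothing is read from the difference to all arm sites. The coverage at which peaks were called bounds these values. Of the sites in the cycle 13 list, 5% had a coverage under 64.1, and 106 of the late cycle 14 only sites reached that value at cycle 13 (9.06%, 7.48 to 10.9). Without the 52 sites whose interval overlapped a peak of an earlier list, described further on, it was 61 of 1118 (5.46%, 4.199 to 6.95). Of the sites in the cycle 8 list, 5% were under 62.2, and 36 of the late cycle 14 only sites reached that value at cycle 8 (3.08%, 2.16 to 4.23), or 9 of 1118 (0.81%, 0.37 to 1.52) without those 52.

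**Figure D2:**
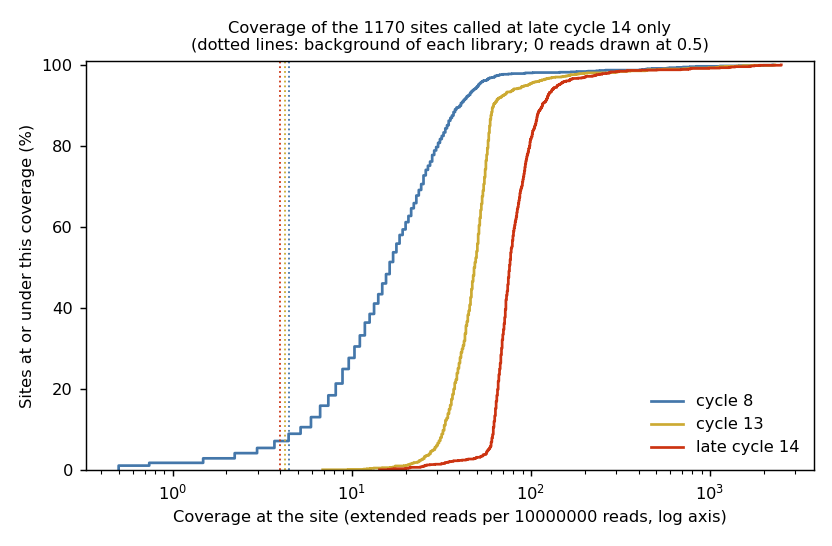
Cumulative share of the 1170 sites called at late cycle 14 only (vertical axis, percent) by coverage (horizontal log axis, extended reads per 10000000 reads) for each of the 3 stages, with the background of each library as a dotted line. The medians were 16.3, 48.5 and 76.1, and the cycle 13 and late cycle 14 curves lie to the right of background throughout.

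Coverage was lowest at cycle 8 and highest at late cycle 14, with cycle 13 between, at 1102 of the 1170 sites (94.2%, 92.7 to 95.5). The same order was seen at 35.5% of all arm sites and at 82.4% of the sites shared by cycle 13 and late cycle 14. The median log2 ratio was 1.52 from cycle 8 to cycle 13 and 0.73 from cycle 13 to late cycle 14, which correspond to 2.86 and 1.66 times. From cycle 8 to late cycle 14 it was 2.30 (quartiles 1.52 and 3.14), or 4.91 times. In these ratios read numbers under 3 were set to 3, which touched 34 sites at cycle 8 and 0 at cycle 13. Over all 13531 arm sites the medians were 0.18, -0.30 and -0.21. A ratio of 2-fold or more above cycle 8 was reached by 1032 late cycle 14 only sites (88.2%), beside 34.1% of all arm sites. The same ratio above cycle 13 was reached by 295 (25.2%, 22.8 to 27.8), beside 3.89% of all arm sites, and 828 sites (70.8%, 68.1 to 73.4) were higher by 2-fold or more at cycle 13 than at cycle 8, beside 32.1%. The peak calls of these libraries chose the sites, so nothing is read from these differences in share. The 2-fold share above cycle 13 depended on the scaling and the copies. It was 14.1% with 1 read per position and strand, beside 1.57% of all arm sites, and 64.0% with the libraries scaled by the median of ratios, beside 14.5%.

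Sites shared by cycle 13 and late cycle 14 were the class most like these. Their median coverage was 28.9 at cycle 8, 100.9 at cycle 13 and 135.6 by late cycle 14, higher than that of the late cycle 14 only sites at each stage. Their median log2 ratio was 2.005 from cycle 8 to cycle 13 and 0.44 from cycle 13 to late cycle 14, against 1.52 and 0.73 for the late cycle 14 only sites. The shares of sites at 2-fold or more above cycle 8 were 88.1% (86.7 to 89.4) and 88.2%. Sites in all 3 lists stood at 197.1, 300.5 and 255.7, and sites called at cycle 8 only at 86.0, 32.9 and 15.4.

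In 52 of the 1170 sites the late cycle 14 interval overlapped a peak interval of an earlier list although the midpoints lay more than 150 bp apart. In these the distance between midpoints had a median of 185 bp, with a range of 155 to 430 bp. Their median deposited height was 167.6 against 71.9 for the other 1118, and their median coverage was 70.8 at cycle 8, 182.8 at cycle 13 and 171.3 by late cycle 14. All 10 sites with the highest deposited height belonged to this group. The highest, on 2R at 18578301 (interval 18578051 to 18578700, dm3), lay 1727 bp from robo, which encodes an axon guidance receptor, in sequence labelled intergenic. Its coverage was 2249 (2169 to 2330) at cycle 8, 2306 (2238 to 2375) at cycle 13 and 2507 (2433 to 2582) by late cycle 14, so coverage was high at every stage, and the nearest midpoint of another list lay 155 bp away.

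The other high sites of this group also had many reads at the earlier stages. In an intron of psq, a BTB-domain transcription factor gene, the site on 2R at 6469296 (6469061 to 6469680) had 595.7 at cycle 8 (555.2 to 638.4), 1225 at cycle 13 (1175 to 1276) and 1779 by late cycle 14 (1717 to 1843). In an intron of jing, a zinc-finger gene of the midline and trachea, the site on 2R at 2461405 (2460951 to 2461730) had 420.9, 1405 and 1895, a ratio of 4.50 (4.12 to 4.93) between the first and the last stage. Within 5000 bp of the gap gene hb, in an intron of CG8112, the site on 3R at 4526881 (4526461 to 4527150) had 657.2, 777.4 and 986.2. At these 3 sites coverage was highest at late cycle 14 and lowest at cycle 8.

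The other 6 of the 10 differed in order and size. In an intron of EloA, which encodes Elongin A, the site on 3R at 19077944 (19077781 to 19078120) went from 1985 at cycle 8 through 1739 to 1386, the reverse order, a ratio of 0.70 (0.66 to 0.74). The site 1407 bp from fkh, a forkhead gene of gut and salivary glands, on 3R at 24412241 (24412111 to 24412520) had 575.7, 986.7 and 1138. On 2R at 9457304 and 9449941, near CG13335 and CG13334, the ratios of late cycle 14 to cycle 8 were 1.17 (1.10 to 1.23) and 0.93 (0.856 to 1.004). The remaining 2 sites, on 3L at 14143261 and 9022316 with no positioned gene within 5000 bp, reached 3.72 (3.41 to 4.07) and 3.16 (2.88 to 3.48). At a joining distance of 300 bp, 1110 sites were left as late cycle 14 only.

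The edge of the rule lay among sites of this kind. Just inside it, at 155 bp, were the robo and jing sites and a site in Acon, the aconitase gene, on 2L at 21168795, with a coverage of 93.4, 131.4 and 92.1 in stage order. Just outside it, at 150 bp and therefore joined, were sites on 2R at 10815941 near CG10253, at 13365869 near CG4827 and at 19460818 in apt, with late cycle 14 coverage of 167.0, 232.8 and 313.5 and cycle 13 coverage of 132.5, 133.0 and 256.0. In all, 15 late cycle 14 peaks lay over 140 and up to 150 bp from the nearest midpoint of another list, and 11 lay over 150 and up to 160 bp from it. Leaving out the 52 overlapping sites gave medians of 16.3, 48.0 and 75.5 at the 3 stages, with a median log2 ratio of 2.33 to cycle 8 and 0.75 to cycle 13.

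The 1118 sites without overlap reached a deposited height of 190.9 at most. Their nearest midpoint of another list lay at a median of 1758 bp, with quartiles of 780.0 and 3990 bp. The profile of mean coverage around them had a local maximum at the site at every stage, at a position that was itself chosen for the highest summed coverage within 75 bp. At cycle 8 the mean was 18.8 at the site, against 8.85 and 8.22 at 180 bp on either side. At cycle 13 it was 48.3 against 17.4 and 16.4, and at late cycle 14 it was 81.9 against 24.7 and 23.6. These flanks are the low points of the profile. Farther out, where other sites were not left out, the cycle 8 mean equalled or exceeded that at the site, with 24.1 at 1100 bp to the left and 19.1 at 600 bp to the right, whereas at cycle 13 it was 35.5 and 29.8 there and at late cycle 14 it was 42.2 and 36.5, lower than at the site. Forward reads lay mostly on the left and reverse reads mostly on the right, the arrangement that fragments centred on the site give. The sites were centred on peaks called from the late cycle 14 reads, so the arrangement is a description and nothing is read from it. Of the reads within 150 bp of the midpoint, 69.6% of forward reads started to the left at cycle 8, 71.9% at cycle 13 and 74.5% by late cycle 14, and 69.0%, 70.9% and 74.1% of reverse reads started to the right. In sites shared by cycle 13 and late cycle 14 the forward shares were 69.8%, 75.2% and 75.7%. Over all arm sites they were 78.7%, 78.6% and 79.3%, higher at each stage than at the late cycle 14 only sites without overlap.

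**Figure D3:**
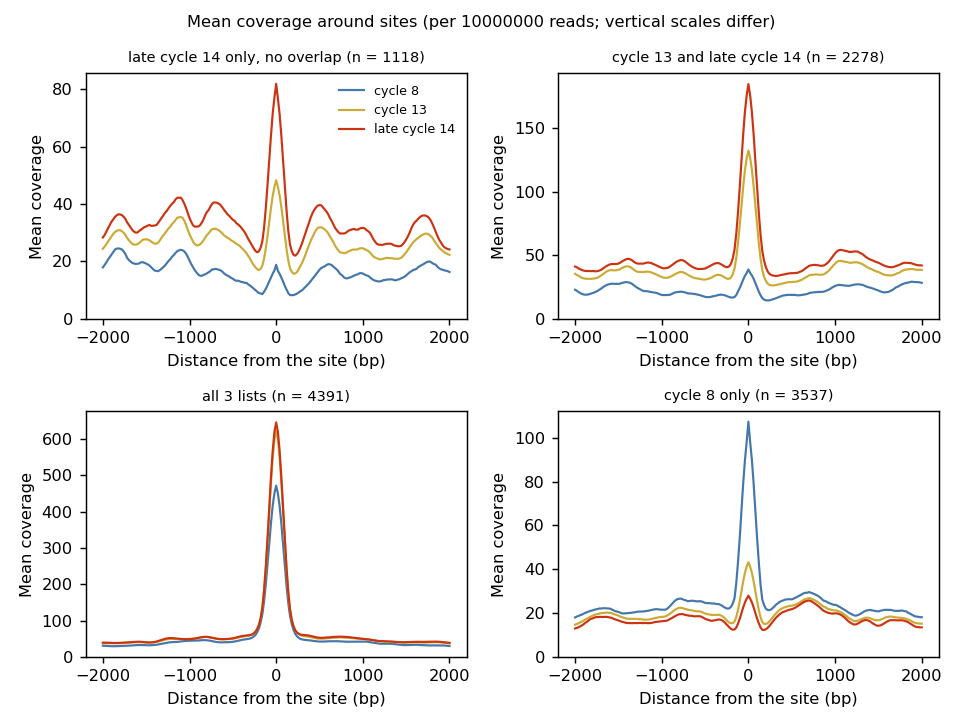
Mean coverage (vertical axis, extended reads per 10000000 reads, a separate scale in each panel) by distance from the site (horizontal axis, bp) for each stage, for the 1118 sites called at late cycle 14 only without overlap and for 3 other classes. At the late cycle 14 only sites the mean was 18.8, 48.3 and 81.9 in stage order, and the sites of cycle 8 only show the opposite order.

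Few distinct read starts stood behind the cycle 8 values. At the 1118 sites without overlap the reads over the measured position came from a median of 6 distinct starts at cycle 8, against 65 at cycle 13 and 74 by late cycle 14, and 1092 sites had fewer than 20 at cycle 8. The median read numbers were 22, 90.5 and 132. Over all 13531 arm sites the cycle 8 median was 31 distinct starts, and 3810 sites had fewer than 20. In the 2278 sites shared by cycle 13 and late cycle 14 it was 11, and 1989 had fewer than 20. The part of these copies in the cycle 8 values was not tested beyond counting 1 read per position and strand, which gave a median log2 ratio of late cycle 14 over cycle 8 of 2.43 over all 1170 sites.

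Coverage of the surroundings differed between stages in the same direction as at the sites. In the sequence 500 to 2000 bp from the late cycle 14 only sites, with other sites left out, read starts numbered 44.3 per kb at cycle 8, 49.3 at cycle 13 and 55.4 by late cycle 14, per 10000000 reads. The log2 ratio of late cycle 14 over cycle 8 was 0.32 there, against -0.11 around all arm sites and -0.55 around sites called at cycle 8 only, and around sites in all 3 lists it was -0.01. Against cycle 13 it was 0.17 around the late cycle 14 only sites and 0.16 around sites shared by cycle 13 and late cycle 14. At 2000 to 5000 bp the ratio to cycle 8 was 0.10 around the late cycle 14 only sites. With 1 read per position and strand the ratio over cycle 8 at 500 to 2000 bp was 0.65 around the late cycle 14 only sites, 0.68 around sites shared by cycle 13 and late cycle 14, 0.24 around all arm sites, 0.32 around sites in all 3 lists and -0.18 around sites called at cycle 8 only. The median log2 ratio at the sites was 2.30, or 2.43 counted in this way, and the part of the surroundings in it was not tested.

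The highest sites without overlap, chosen for naming after their values were seen, lay near genes of several kinds. On 3R at 25088964 (25088821 to 25089100), with no positioned gene within 5000 bp, coverage was 11.9 at cycle 8 (6.78 to 19.3), 73.1 at cycle 13 (61.4 to 86.4) and 230.0 by late cycle 14 (208.0 to 253.6), and the deposited height was 190.9. A site 437 bp from D, the SoxB gene Dichaete, on 3L at 14171227 (14171161 to 14171440) had 25.9 at cycle 8 (18.1 to 36.1), 167.5 at cycle 13 (149.5 to 187.0) and 251.7 by late cycle 14 (228.7 to 276.3), with a height of 146.5. In bl, which encodes an hnRNP K protein, the site on 2R at 16492037 (16491971 to 16492250) had 20.01, 182.3 and 345.5, with a height of 153.8. At D and bl the late cycle 14 coverage was well above the deposited height, and the part of reads from neighbouring peaks in it was not tested. At all 3 sites the intervals of the 3 stages did not overlap, and the step from cycle 8 to cycle 13 was larger as a ratio than the later one.

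At some of these high sites almost no reads were seen at cycle 8. The site 715 bp from S, which encodes the Spitz trafficking protein Star, on 2L at 1065695 (1065541 to 1065820) had 0 reads at cycle 8 (upper limit 2.73), 60.9 at cycle 13 (50.3 to 73.2) and 151.0 by late cycle 14 (133.3 to 170.4). The site in sas, a cell surface protein gene, on 3R at 2993104 (2992951 to 2993230) had 1 read at cycle 8, a coverage of 0.74 (0.019 to 4.13), then 60.9 (50.3 to 73.2) and 147.0 (129.6 to 166.1). In kis, which encodes a CHD chromatin remodeller, the site on 2L at 248502 had 3.71 (1.203 to 8.65), 56.7 and 131.0. At S and sas the cycle 8 intervals lay under the background of 4.45, at kis the interval included it, and at all 3 sites cycle 13 was more than 10 times background.

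Further high sites lay in brat, a translational repressor gene, with 12.6, 59.4 and 140.7 on 2L at 19137060, and in mam, which encodes the Notch co-activator Mastermind, with 14.1, 46.1 and 129.9 on 2R at 9883338. In larp, a La-related RNA-binding protein gene, the site on 3R at 24152156 had 33.3, 72.1 and 135.0. Ratios of late cycle 14 to cycle 13 at these 3 sites were 2.37 (1.89 to 2.99), 2.82 (2.19 to 3.65) and 1.87 (1.51 to 2.33). At cycle 8 the sites in brat and mam lay between the members' quartiles, whereas the one in larp stood above the upper quartile.

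At 232 of the 1170 sites (19.8%, 17.6 to 22.2) the ratio of late cycle 14 over cycle 13 was larger than that of cycle 13 over cycle 8, beside 28.7% of all arm sites. It was so at 2.46% of the sites shared by cycle 13 and late cycle 14 (56 of 2278). Of the sites called at cycle 8 only it was 70.9%, and there both median log2 ratios were negative, -0.97 and -1.55. The peak calls chose the classes, so these shares are a description. Among late cycle 14 only sites at or above the members' median height, the 10 largest ratios over cycle 13 ran from 2.92 to 3.78 times. Because these 10 were chosen for this ratio it is a description. The largest was in CG4221 on 3R at 11747760 (11747591 to 11747870), with 11.9 at cycle 8 (6.78 to 19.3), 32.9 at cycle 13 (25.2 to 42.1) and 124.1 by late cycle 14 (108.2 to 141.8), a ratio of 3.78 (2.84 to 5.10). The site 2637 bp from grim, a gene that promotes apoptosis, on 3L at 18300151 had 6.67, 31.3 and 100.7, a ratio of 3.22 (2.39 to 4.40). In hbn, the homeobox gene homeobrain, the site on 2R at 16845051 had 12.6, 27.0 and 82.4, a ratio of 3.05 (2.20 to 4.28). At CG4221 and grim both earlier intervals lay under the late cycle 14 interval, and the cycle 8 and cycle 13 intervals did not overlap each other. At hbn the cycle 8 interval (7.34 to 20.2) and the cycle 13 interval (20.1 to 35.5) met.

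At others of the 10 the earlier stages lay close together. The site 55 bp from comm, an axon guidance gene that sorts Robo, on 3L at 15721578 had 23.7 (16.2 to 33.5), 31.3 (23.8 to 40.3) and 93.2 (79.5 to 108.7). In Pvf3, a ligand gene of the PDGF and VEGF receptor family, the site on 2L at 7148527 had 18.5 (11.99 to 27.3), 27.0 (20.1 to 35.5) and 78.9 (66.3 to 93.3). Near CG33695 on 2L at 11269548 the values were 30.4 (21.8 to 41.2), 32.3 (24.7 to 41.5) and 96.7 (82.7 to 112.4). At these 3 sites the cycle 8 and cycle 13 intervals overlapped and late cycle 14 was 2.92 to 2.99 times cycle 13. The remaining sites were near Lerp, which encodes a lysosomal enzyme receptor, with 3.55 (2.56 to 5.02), near CG32118 with 3.43 (2.65 to 4.48), on 3L at 20251994 with 3.63 (2.52 to 5.33) and the 3R site at 25088964 with 3.15 (2.59 to 3.84).

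The late cycle 14 only sites were spread over the 4 arms in like shares. They made up 8.43% of the sites of 2L (257 of 3050, 7.46 to 9.47), 8.71% of 2R (280 of 3213, 7.76 to 9.74), 9.24% of 3L (299 of 3235, 8.27 to 10.3) and 8.28% of 3R (334 of 4033, 7.45 to 9.18), and these intervals overlapped. In windows of 50000 bp, 1221 of 1932 held no late cycle 14 only site, 426 held 1 and 173 held 2, and the fullest held 7, with windows laid side by side.

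Among their neighbours, sites of the later lists were common. The nearest other site, at a median of 1181 bp, was itself late cycle 14 only for 17.3% of the 1170 sites, against 8.50% over all arm sites, and was shared by cycle 13 and late cycle 14 for 31.2% against 17.3%. It was a site called at cycle 8 only for 13.1% against 25.1%. Sites shared by cycle 13 and late cycle 14 had neighbours much like these, with 15.2%, 29.3% and 11.3%. The coverage of the neighbours was also higher at late cycle 14. Where the nearest site lay 500 to 5000 bp away (766 pairs), its median log2 ratio of late cycle 14 over cycle 8 was 1.57, and 541 of 766 were higher at late cycle 14 (70.6%), against a median of -0.17 and 47.8% over the 8814 pairs of all arm sites. Beside sites shared by cycle 13 and late cycle 14 (1573 pairs) the values were close to those of the late cycle 14 only sites, 1.36 and 70.8%. At 5000 to 20000 bp the median was -0.16 (200 pairs), against 0.13 beside the shared sites and -1.16 over all arm sites. Neighbouring sites share chromatin and libraries and many neighbours were themselves members of the later lists, so these values are a description without a test.

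**Figure D4:**
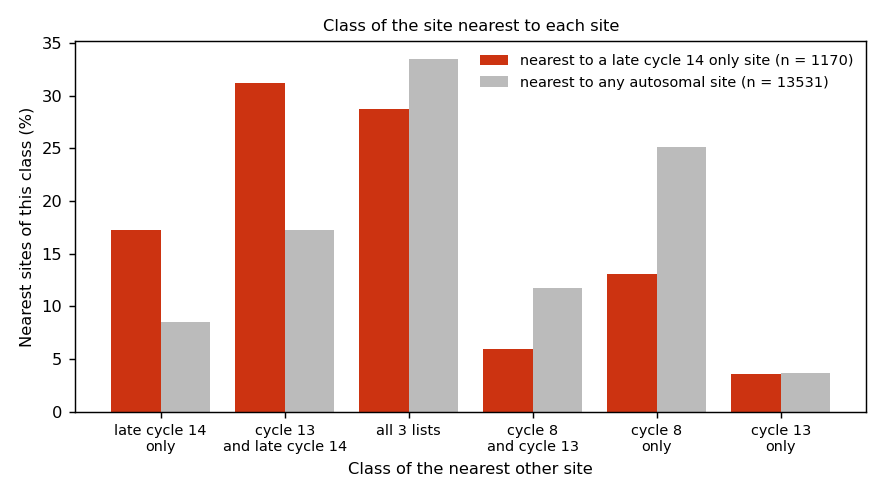
Class of the nearest other site (horizontal axis) as a share (vertical axis, percent) for the 1170 sites called at late cycle 14 only (red) and for all 13531 arm sites (grey). The late classes are more frequent beside the late cycle 14 only sites, with 17.3% against 8.50% and 31.2% against 17.3%, and cycle 8 only is less frequent, with 13.1% against 25.1%.

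With windows moved in steps of 10000 bp, the fullest held 8 late cycle 14 only sites among 13 sites, on 3R from 10530001 to 10580000. The other 5 sites were all shared by cycle 13 and late cycle 14, and none of the 13 was called at cycle 8. The 8 sites had cycle 8 coverage from 0 to 48.9, cycle 13 coverage from 30.2 to 88.5 and late cycle 14 coverage from 61.2 to 140.1, so the ranges of the last 2 stages met only through 1 site, at 10565923. The deposited height of that site was 69.9, well under its late cycle 14 coverage of 140.1. On 2R from 7480001 to 7530000, a window with tou, a gene of a chromatin protein, CG9005 and neighbouring genes, 7 of 28 sites were late cycle 14 only and 14 were shared by cycle 13 and late cycle 14. The medians of the 7 were 6.67, 53.5 and 78.4 in stage order, and 2 of them had no read at cycle 8.

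The windows on 3L from 10800001 to 10850000, with tna, and on 3R from 810001 to 860000, with CG2022, held 7 late cycle 14 only sites each, of 14 and 13 sites. Their medians were 26.7, 44.5 and 68.1 at the first and 8.89, 49.8 and 76.1 at the second. On 2L from 7500001 to 7550000, with Rapgap1, 6 of 16 sites were late cycle 14 only. The highest of them, at 7545566, with 57.8, 121.9 and 157.9, was 1 of the 52 that overlap another list. In all 5 windows the other sites had a median log2 ratio of late cycle 14 over cycle 8 above 0, from 1.57 to 3.55.

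A gene with an edge or interval from the rows used of the study's tables (4765 genes) lay within 5000 bp of 715 of the 1170 sites. This wider gene set served to name the nearest gene, and its count is not set beside one for all arm sites. The shares that follow use the 1459 genes with a full interval. Near 85 genes of 9 lists of developmental regulators, 68 of 674 sites were late cycle 14 only (10.1%, 7.92 to 12.6), against 8.65% of all arm sites. Near any of the 1459 genes the share was 9.00% (454 of 5042 sites). The interval for the lists includes the value for all sites. It depended on the distance from the gene, with 10.3% (54 of 522, 7.87 to 13.3) within 2000 bp and 11.6% (of 873 sites, 9.52 to 13.9) within 10000 bp, where the interval lay above 8.65%. The median coverage of the 68 sites was 18.5, 49.0 and 75.8 in stage order, close to that of all 1170. Within 5000 bp the shares of single lists ran from 6.56% (4 of 61, 1.82 to 16.0) for gap genes to 12.2% (6 of 49, 4.63 to 24.8) for ecdysone pathway genes, and every interval held 8.65%.

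Near the gap gene Kr, where 4 of 5 sites were in all 3 lists, the late cycle 14 only site on 2R at 21120215, 3158 bp from the gene, had 16.3 at cycle 8 (10.2 to 24.7), 58.8 at cycle 13 (48.4 to 70.8) and 130.4 by late cycle 14 (114.0 to 148.5). Pair-rule genes divide the embryo into alternating segments, and their list also held drm, a relative of the pair-rule gene odd. In this list 6 of 10 genes had such a site, beside 45 of the 85 genes of all lists. Of its 75 sites, 8 were late cycle 14 only (10.7%, 4.72 to 19.9). The site 1283 bp from odd, a zinc-finger gene, on 2L at 3602938 had 18.5, 55.1 and 80.1, and the site 1741 bp from its relative drm on 2L at 3549827 had 15.6, 68.9 and 115.0. The deposited height at drm was 72.6, under its late cycle 14 coverage. The ratios of late cycle 14 to cycle 13 were 1.45 (1.12 to 1.89) at odd and 1.67 (1.33 to 2.10) at drm. The kni and ftz regions held 11 and 9 sites and 0 that were late cycle 14 only.

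Segment polarity genes keep the borders of the segments, and 7 of their 58 sites were late cycle 14 only (12.1%, 4.99 to 23.3). In hh, which encodes the Hedgehog ligand, the site on 3R at 18964348 had 8.89, 47.2 and 89.2. The site 154 bp from lbe, a homeobox gene, on 3R at 17272196 had 11.9, 55.6 and 108.7. The ratios of late cycle 14 to cycle 8 were 10.04 (5.59 to 19.8) and 9.17 (5.50 to 16.4). In the dorsal-ventral list, pnr, a GATA factor gene of the dorsal ectoderm, had a site on 3R at 11858778 with 20.01, 48.8 and 87.5. The site 1142 bp from zen on 3R at 2583201 had 10.4, 53.0 and 66.9, and its ratio of late cycle 14 to cycle 13, 1.26 (0.96 to 1.67), had an interval that included 1.

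The Notch pathway and Bearded complex list had 5 such sites of 42, and its highest, near the Bearded family gene Ocho on 3L at 14969283, had 17.0, 44.5 and 91.0. A site 1888 bp from BobA, of the same family, on 3L at 14941100 had 7.41, 40.3 and 74.9. In the EGF and FGF receptor list (8 of 69 sites), a site 2932 bp from aop, which encodes the ETS repressor Yan, on 2L at 2181681 had 35.6, 56.7 and 103.0. The site in pnt, which encodes the ETS activator of the same pathway, on 3R at 19140922 had 13.3, 69.4 and 164.7, with a height of 100.5. Ratios to cycle 13 were 1.82 (1.42 to 2.33) at aop and 2.37 (1.92 to 2.94) at pnt. Of the organ determinants (8 of 97 sites), dac, a nuclear factor gene of eye and leg, had a site 180 bp away on 2L at 16486164 with 25.9, 178.1 and 263.7, which overlapped another list.

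The homeotic genes, which set segment identity, had 15 late cycle 14 only sites of 125 (12%, 6.87 to 19.0), beside 36 shared by cycle 13 and late cycle 14 and 57 in all 3 lists. Antp and Ubx had 4 each, of 36 and 32 sites. The 4 sites in Antp (3R, 2721974 to 2824950) had cycle 8 coverage from 5.93 to 17.8, cycle 13 coverage from 47.7 to 56.7 and late cycle 14 coverage from 84.1 to 97.3, so the 3 stages did not overlap and the sites were close to each other in level at each stage. The highest of them, at 2746228, had a ratio of 16.4 (8.14 to 38.6) to cycle 8 and 1.72 (1.34 to 2.21) to cycle 13. At Ubx (3R, 12482097 to 12560348) the 4 sites ran from 8.89 to 47.4, from 40.3 to 53.0 and from 58.9 to 87.5, so that cycle 8 and cycle 13 overlapped. In lab (3R, 2487139 to 2504312), the site at 2489053 had 28.9, 100.2 and 201.9 with a height of 91.5, and the one at 2494164 had 11.1, 35.5 and 72.7. The site in Abd-B on 3R at 12759231 had 25.9, 50.3 and 93.8. The regions of Dfd and Scr had 7 and 9 sites, 0 of them late cycle 14 only.

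EcR, the ecdysone receptor gene, had 5 late cycle 14 only sites of 18 (2R, 1977923 to 2044634), all inside the gene, beside 6 shared by cycle 13 and late cycle 14, 4 in all 3 lists and 1 of cycle 8 only. At 2002624 coverage was 28.2 (19.9 to 38.7), 59.4 (48.9 to 71.4) and 116.1 (100.7 to 133.2). At 2020346 it was 8.15 (4.07 to 14.6), 48.8 (39.3 to 59.8) and 99.0 (84.8 to 114.9), and the stages did not overlap at either site. The remaining 3 sites, at 2012515, 2026214 and 2029145, had late cycle 14 coverage from 65.2 to 74.9 and cycle 8 coverage from 0 to 31.1. Ecdysone pathway genes are known for later steps of development, and 2 of the 6, EcR with 5 and Eip75B with 1, had such sites, beside 45 of the 85 genes of all lists.

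Outside the lists, the gene of the table with most late cycle 14 only sites was lola, a BTB zinc-finger gene of axon guidance, with 6 of 14 sites (2R, 6369711 to 6430767). Of these, 5 had cycle 8 coverage from 6.67 to 34.8, cycle 13 coverage from 41.3 to 57.8 and late cycle 14 coverage from 63.5 to 84.7. The sixth, at 6422576, overlapped another list and had 74.8, 338.6 and 310.0. Genes with 4 sites included bun, a TSC22 family gene, rdx, a BTB gene of the Hedgehog pathway, the homeobox genes dve and hbn, and apt, larp and tou. In bun the 4 sites lay in the last 7 kb of the gene interval, with late cycle 14 coverage from 73.2 to 116.7 and cycle 8 coverage from 2.96 to 30.4. At dve, 3 of the 4 lay within 2 kb of the left end of the interval, and the highest, on 2R at 18130650, had 5.93, 136.7 and 201.9 and overlapped another list. These genes were picked for their number of such sites, and the length of the gene was not taken into account.

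**Figure D5:**
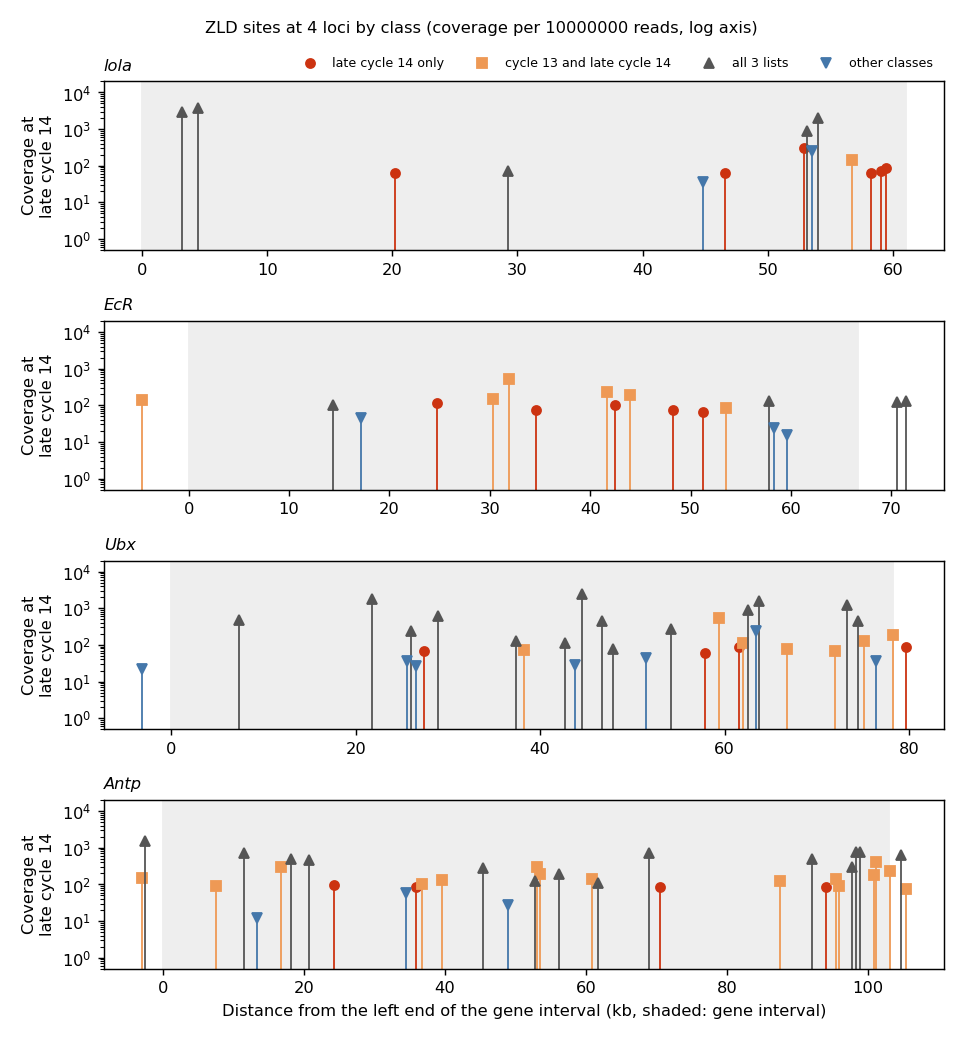
Sites at lola, EcR, Ubx and Antp by class, placed by distance from the left end of the gene interval (horizontal axis, kb, interval shaded), with late cycle 14 coverage on the vertical log axis (extended reads per 10000000 reads). The late cycle 14 only sites (red circles) numbered 6, 5, 4 and 4 and lay between 58.9 and 116.1 apart from 1 at lola with 310.0, under the highest sites of all 3 lists at each of the 4 genes.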

How the data were processed

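Reads were mapped by the authors to dm3 (BDGP Release 5) with Bowtie (version 0.12.5 in the submitters' processing notes), and peaks were called in each library with Grizzly Peak. The authors deposited, for each stage, the mapped 25 bp reads and the peak list with intervals and heights, a fitted coverage signal scaled to 10000000 reads. From these files, coverage, joined sites, ratios and exact Poisson, Clopper-Pearson and conditional binomial intervals were computed with Python 3.11.15, numpy 2.4.6, scipy 1.17.1 and pandas 2.3.3, and the functions were tested on simulated data. Depth was 13496488 to 18870755 reads. No test between stages was made. Gene positions on dm3 came from the rows used of the study's tables (1459 genes), with gene edges for 4765 genes derived from distances to peaks, so the nearest gene named is the nearest among these. Sites named were the 10 highest, the 10 largest ratios over cycle 13 at or above the median height, the 2 highest per gene list, 5 windows and 3 on each side of the 150 bp limit, and those added are said to be so. The sites and gene lists were chosen with earlier results of these data known. Alternatives concerned joining, counting, copies, scaling, background and gene distance. Motifs and sequences were not analysed here, because the dm3 sequence was not used, and input DNA was not used.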

Additional observations from a re-analysis of the deposited data

How the results depend on the processing

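With 1 library per stage, no setting gives a replicate error, and depth limits the cycle 8 values most. Without the 52 overlapping sites, chosen after seeing the data, the medians, median ratios, shares over background and 2-fold shares moved little, but fewer sites reached the levels of called sites, 0.81% at cycle 8 and 5.46% at cycle 13. The number of sites was 1110 to 1404 under other joining distances, peak positions and overlaps, and 542 when each list was limited to heights no lower than its median. Counting over the interval midpoint gave medians of 14.1, 46.6 and 73.2 in stage order and a log2 ratio to cycle 8 of 2.46. Reads over 300 bp gave 31.1, 80.02 and 126.4, with 2.03 to cycle 8 and 0.65 to cycle 13. With 1 read per position and strand they were 19.0, 68.8 and 104.7, with 2.43 and 0.65. Scaled to reads outside sites they were 14.3, 51.0 and 82.6, with 2.61 and 0.78. The median of ratios gave 42.3 at cycle 13 and 87.5 at late cycle 14, with 2.50 and 1.13. It moved the median ratio of all arm sites from -0.21 to 0.00 over cycle 8 and from -0.30 to 0.10 over cycle 13. With background subtracted they were 11.9, 44.3 and 72.1, with 2.71 and 0.80. At 3 times background 61.5% of sites passed at cycle 8, beside 93.95% of all arm sites. At 3-fold, 72.8% passed over cycle 8 and 1.03% over cycle 13. The 2-fold shares over cycle 8 were 93.3% scaled to reads outside sites, 92.3% by the median of ratios and 91.2% with 1 read per position and strand, and over cycle 13 they were 29.7%, 64.0% and 14.1%, 3 settings added after seeing the data. Of 58 alternatives 38 were classed as moving a value and 20 as leaving it alike, and every median log2 ratio stayed above 0. Being classed as alike did not mean an equal value, because the counts of 1110 to 1404 sites beside 1170 were in that class. The motif alternative was not run. No paired analysis was possible because each stage has 1 library with replicate number 1.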

Other observations

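A few sites called at late cycle 14 only had lower coverage at that stage than earlier. They were chosen after their values were seen. Coverage was 2-fold or more below cycle 13 at 5 of the 1170 sites (0.43%), and 4 of these overlapped an interval of another list. The share was 25.6% over all arm sites and 0.31% in sites shared by cycle 13 and late cycle 14. The peak calls chose the sites, so nothing is read from this difference. Near wun, a gene that guides germ cell migration, the site on 2R at 5295506 went from 1138 at cycle 8 (1082 to 1196) through 520.4 (488.3 to 554.0) to 171.6 (152.7 to 192.2). Near CG7364 on 2L at 13772779 it went from 477.2 through 310.5 to 116.1. In Kap-alpha1, an importin gene, the site on 3L at 19802487 had 208.2, 446.7 and 192.2, so that cycle 13 was the highest stage. The only 1 without overlap, 940 bp from the T-box gene Doc2 on 3L at 9004839, had 63.0 (50.3 to 77.9), 38.2 (29.9 to 48.1) and 16.6 (11.1 to 23.8), with a deposited height of 16.4. That site was called only at the stage where its coverage was lowest. The 5 lowest deposited heights ran from 13.8 to 16.8, and 3 of these 5 sites had their highest coverage at cycle 8.

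The next sites were also added after their values were seen. Without overlap, the highest cycle 8 coverage among the late cycle 14 only sites was 103.0 (86.6 to 121.6), in Pino on 2L at 1119378, followed by 69.7 (56.3 to 85.2) in Tim17b2, which encodes a mitochondrial import protein, on 2L at 15486467 and 67.4 (54.3 to 82.8) in CG12004 on 3L at 1573043. All 3 values are above the 62.2 under which 5% of the sites in the cycle 8 list lay, but the intervals at Tim17b2 and CG12004 include it. The first had 88.5 at cycle 13 and 164.7 at late cycle 14, the second had 88.5 and 139.6, and the third had 164.3 and 109.3, so that it was highest at cycle 13. Their deposited heights were 73.9, 81.2 and 49.8, well under their late cycle 14 coverage. The part of reads from neighbouring peaks in the coverage of these 3 sites was not tested.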
